A study of Mus musculus with 9 samples.

Results

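The genes described here encode the phase II conjugation enzymes of the mouse liver, namely the UDP-glucuronosyltransferases (UGTs), the cytosolic sulfotransferases (SULTs) and the cytosolic glutathione S-transferases (GSTs). They were chosen by symbol, as every protein-coding gene whose symbol begins with Ugt1a, Ugt2a, Ugt2b, Ugt3a, Sult and a digit, or Gst followed by a, m, p, t, k or z and a digit. Of 69 symbols that fitted, 7 belonged to pseudogenes, which left 62 members among the 56719 genes counted in each library. They comprise 9 UGT1A genes, 12 UGT2 and UGT3 genes, 21 SULT genes, 4 GST alpha genes, 7 GST mu genes and 9 genes of the GST pi, theta, kappa and zeta classes. A filter on low counts kept 43 of the 62 members and 17704 genes in all, and tests were made on those.

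Phase II enzymes couple a polar group to drugs, toxins, bilirubin, hormones and bile acids, which makes these compounds soluble enough to leave in bile or urine. UGTs attach glucuronic acid from UDP-glucuronic acid in the endoplasmic reticulum, SULTs transfer sulfate from the donor PAPS in the cytosol, and GSTs join reactive electrophiles to glutathione. Hepatocytes hold most of these enzymes, and their transcription in liver depends on hepatocyte factors such as HNF1 and HNF4 and on the xenobiotic sensors CAR, PXR, AHR and NRF2. Inflammation of the liver is known to lower the transcripts of many drug-metabolising enzymes.

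The livers of C57BL/6J mice gave 9 RNA-seq libraries of polyadenylated RNA, split evenly into 3 groups of 3. FMT-Con A mice were given, by gavage over 4 weeks, a PBS suspension of faeces from mice in which concanavalin A had induced a model of autoimmune hepatitis, and were then injected with concanavalin A (10 mg/kg, tail vein) on the day the liver was taken. Con A mice had PBS in those 4 weeks and the same injection of concanavalin A, a lectin from jack beans whose effect on T cells damages the liver. WT mice had PBS in the same 4 weeks and were injected with PBS. All 3 groups therefore share the strain and the PBS vehicle, and none received faeces from untreated donors. The study set out to find pathways that bear on the liver's self-repair. Libraries are numbered within a group and no label adds that each stands for its own animal. The p-values below measure the spread between these libraries. Total counts ran from 21580482 to 29466806 in FMT-Con A, from 21772376 to 25890947 in Con A and from 20513051 to 22770276 in WT.

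Some facts of the libraries bear on what follows. The labels give male in the growth protocol and female in the sample characteristics of all 9 samples, and all 4 Y-linked genes checked were counted in every library (Ddx3y at 99.8 to 258 CPM, against 1.04 to 6.36 CPM for Xist). A list of 10 hepatocyte markers summed to 46560, 55180 and 45040 CPM in FMT-Con A, 80750, 69160 and 71970 CPM in Con A and 63610, 59920 and 70310 CPM in WT, and none of its genes was at 0. Of these genes, 4 were higher and 4 lower in Con A vs WT (median log2 fold change -0.15), and the acute-phase gene Fgb alone averaged 16990 CPM in FMT-Con A, 18150 CPM in Con A and 2093 CPM in WT. The list of 18 skeletal muscle genes summed to 18650, 1980 and 18490 CPM in FMT-Con A, 13.4, 23.5 and 2267 CPM in Con A and 52.0 to 64.8 CPM in WT. FMT-Con A 1 and FMT-Con A 3, followed by Con A 3 and FMT-Con A 2, therefore carried far more muscle transcripts than the other libraries, and the source of these was not tested. Mitochondrially encoded transcripts made up 10.8, 7.44 and 11.7% of the counts in FMT-Con A, 5.86, 9.96 and 5.03% in Con A and 19.6 to 22.4% in WT. CPM is the count relative to the TMM-scaled library size.

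Summed over all 62 members, conjugation enzyme transcripts were lowest in FMT-Con A and highest in WT. The sum was 2753, 4056 and 2720 CPM in FMT-Con A, 6407, 5588 and 3716 CPM in Con A and 7191, 7827 and 7706 CPM in WT. Every WT library lay above every injected one, whereas FMT-Con A 2 lay above Con A 3, so the injected groups overlapped. The means were 3176 ± 762 CPM in FMT-Con A, 5237 ± 1380 CPM in Con A and 7575 ± 337.6 CPM in WT (SD, n = 3 each), so the Con A mean was 0.691 times the WT mean and the FMT-Con A mean 0.607 times the Con A mean. Sums are given as a description, with no test. In bulk tissue, fewer hepatocytes and less RNA of a gene per hepatocyte cannot be told apart.

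**Figure D1:**
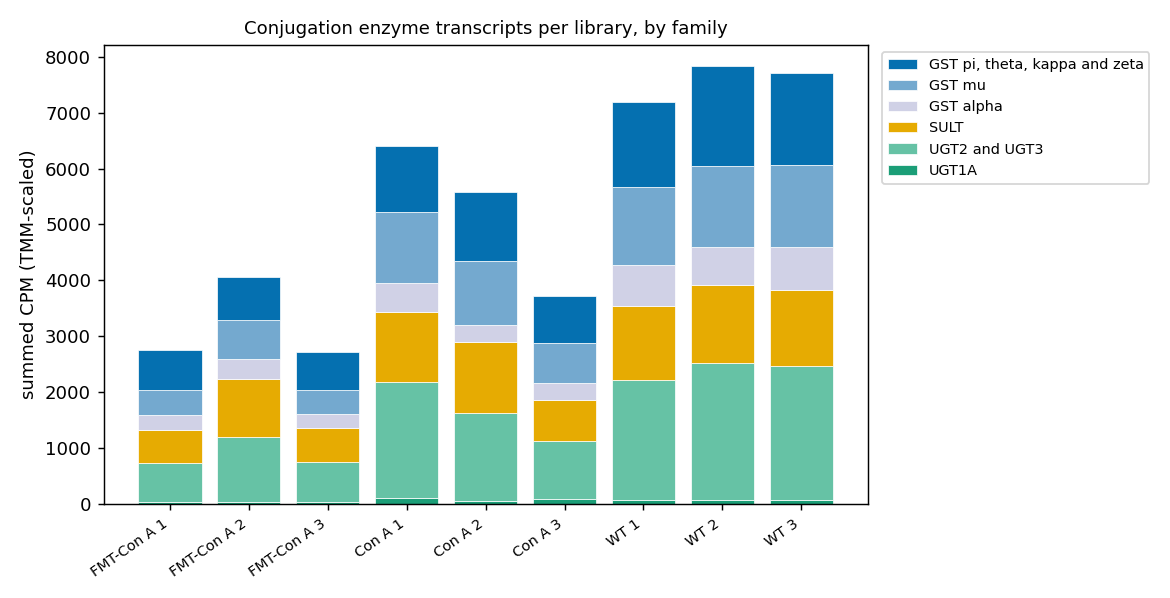
Summed CPM (TMM-scaled, y axis) of the conjugation enzyme genes in each of the 9 libraries (x axis), stacked by family. The 3 FMT-Con A libraries sit between 2720 and 4056 CPM, the Con A libraries between 3716 and 6407 CPM and the WT libraries between 7191 and 7827 CPM.

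The UGT2 and UGT3 genes gave the largest family sum in each group, and the families did not stand in the same proportions. GST mu sums averaged 533 ± 147 CPM in FMT-Con A, 1045 ± 292 CPM in Con A and 1446 ± 35.1 CPM in WT (SD, n = 3 each). For UGT2 and UGT3 the averages were 857 ± 265, 1566 ± 523 and 2330 ± 164 CPM in FMT-Con A, Con A and WT. UGT1A was the one family whose mean in Con A (72.7 ± 23.5 CPM) was not below that in WT (67.9 ± 6.72 CPM), and its FMT-Con A mean was 31.4 ± 3.92 CPM. That order depends on scaling, since as CPM of the library total, without the TMM factors, UGT1A averaged 65.97 ± 18.8 CPM in Con A and 71.2 ± 8.13 CPM in WT.

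Con A livers against WT livers address what the lectin injection did. Here the members divided: 17 of the 43 tested were lower and 10 were higher in Con A (edgeR adjusted p under 0.05), while 16 were not called. The largest rises were in Gstp2, Sult1e1 and Ugt1a6b and the largest falls in Ugt1a6a, Gsta1 and Ugt1a7c. Over all 17704 genes tested, 30.9% were called lower and 32.5% higher, beside 39.5% and 23.3% of the members, and the share called in either direction (62.8%) was near the 63.4% of all genes. With a 2-fold minimum the shares were near the background in both directions, at 23.3% of members lower (against 21.5% of all genes) and 20.9% higher (against 21.6%). Every Con A library lay below every WT library in 22 members (against 34.8% of all genes) and above in 10 (against 35% of all genes). The median log2 fold change was -0.50 over the members and 0.01 over all genes. The count of higher members was 6 without WT 1, without WT 2 or without Con A 1, and 5 with near copies summed to one feature. Leaving out any 1 library gave 15 to 22 lower members.

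FMT-Con A livers against Con A livers address what the faecal transfer added to the injection. In this comparison 16 of 43 members were lower in FMT-Con A and 1, the mu-class gene Gstm5, was higher, against 10.6% and 6.26% of all genes called lower and higher. Of the 16, 12 were at least 2-fold lower, against 4.51% of all genes, and 0 members were at least 2-fold higher, against 3.64%. The groups did not overlap, with FMT-Con A lower, in 15 members (34.9%, against 18.8% of all genes). The median log2 fold change was -0.87 over the members and -0.01 over all genes.

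These calls depended on single libraries. The count of lower members was 1 without Con A 1, 1 without FMT-Con A 1, 1 without FMT-Con A 3, 8 without WT 1, 9 without WT 2, 10 without Con A 2 and 27 without FMT-Con A 2. With only FMT-Con A and Con A in the fit it was 5, and with FMT-Con A 2 as the lone FMT-Con A library it was 0. Ugt1a6b was the one member of the 17 called that stayed past the threshold whichever single library was left out. Of the 10 hepatocyte markers, 4 were also lower in FMT-Con A than in Con A and 0 were higher, with a list median log2 fold change of -0.73, and their part in the members' result was not tested. With the 18 listed skeletal muscle genes and the mitochondrial genes removed before scaling, all 17 calls stood. Muscle transcripts outside that list stayed in the counts, so the part of muscle in these calls was not tested.

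In FMT-Con A livers set against WT livers, 28 members were lower and 5 higher. Over all genes tested 27.9% were called lower and 31.2% higher, beside 65.1% and 11.6% of the members, and 59% were called in either direction, beside 76.7% of the members. At least 2-fold falls were found in 27 members (62.8%, against 18.4% of all genes) and such rises in 3 (6.98%, against 19.1%). In 27 members every FMT-Con A library lay below every WT library (against 33.7% of all genes), while 5 lay wholly above (against 35.4% of all genes). Of these 33 calls, 29 stayed past the threshold whichever single library was left out, and the count of higher members was 3 without WT 1. Leaving out FMT-Con A 1 or FMT-Con A 3 kept the other, the library most like it, so these fits cannot show dependence on the pair. Hepatocyte markers in the same comparison gave 6 of 10 lower and 2 higher, with a median log2 fold change of -0.80.

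**Figure D2:**
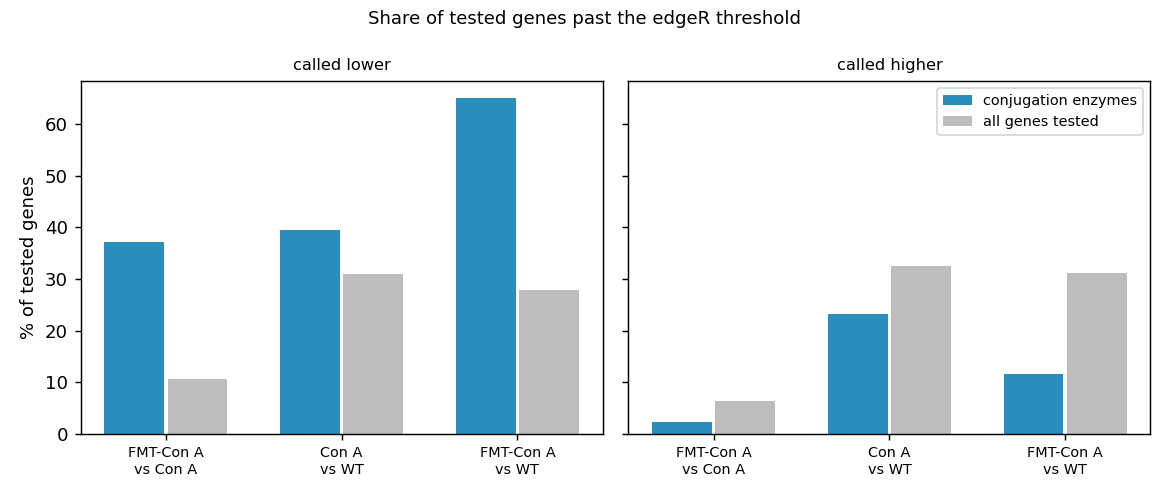
Share of tested genes (% on the y axis) called lower (left) and higher (right) at an edgeR adjusted p under 0.05, for the conjugation enzyme genes (blue, 43 genes) and all genes tested (grey, 17704 genes) in each comparison. The members' share called lower is 37.2%, 39.5% and 65.1%, against 10.6%, 30.9% and 27.9% of all genes, for FMT-Con A vs Con A, for Con A vs WT and lastly for FMT-Con A vs WT.

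The comparisons share libraries, so their values are given side by side. A gene that is high in the Con A libraries by chance tends to be called higher against WT and lower in FMT-Con A. Matching shares over all genes are not given, so the counts below are a description. Whether the faecal transfer reversed changes made by the injection was not tested. Of the 10 members higher in Con A than in WT, 4 (Ugt1a1, Ugt1a6b, Ugt1a9 and Ugt2b37) were lower in FMT-Con A than in Con A and 6 were not called there. Of the 17 lower in Con A than in WT, 3 (Gstp1, Ugt2a3 and Ugt2b35) were lower again in FMT-Con A than in Con A and 14 were not called. A further 9 were called lower in FMT-Con A vs Con A and not called in Con A vs WT, and 6 members were called in neither.

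**Figure D3:**
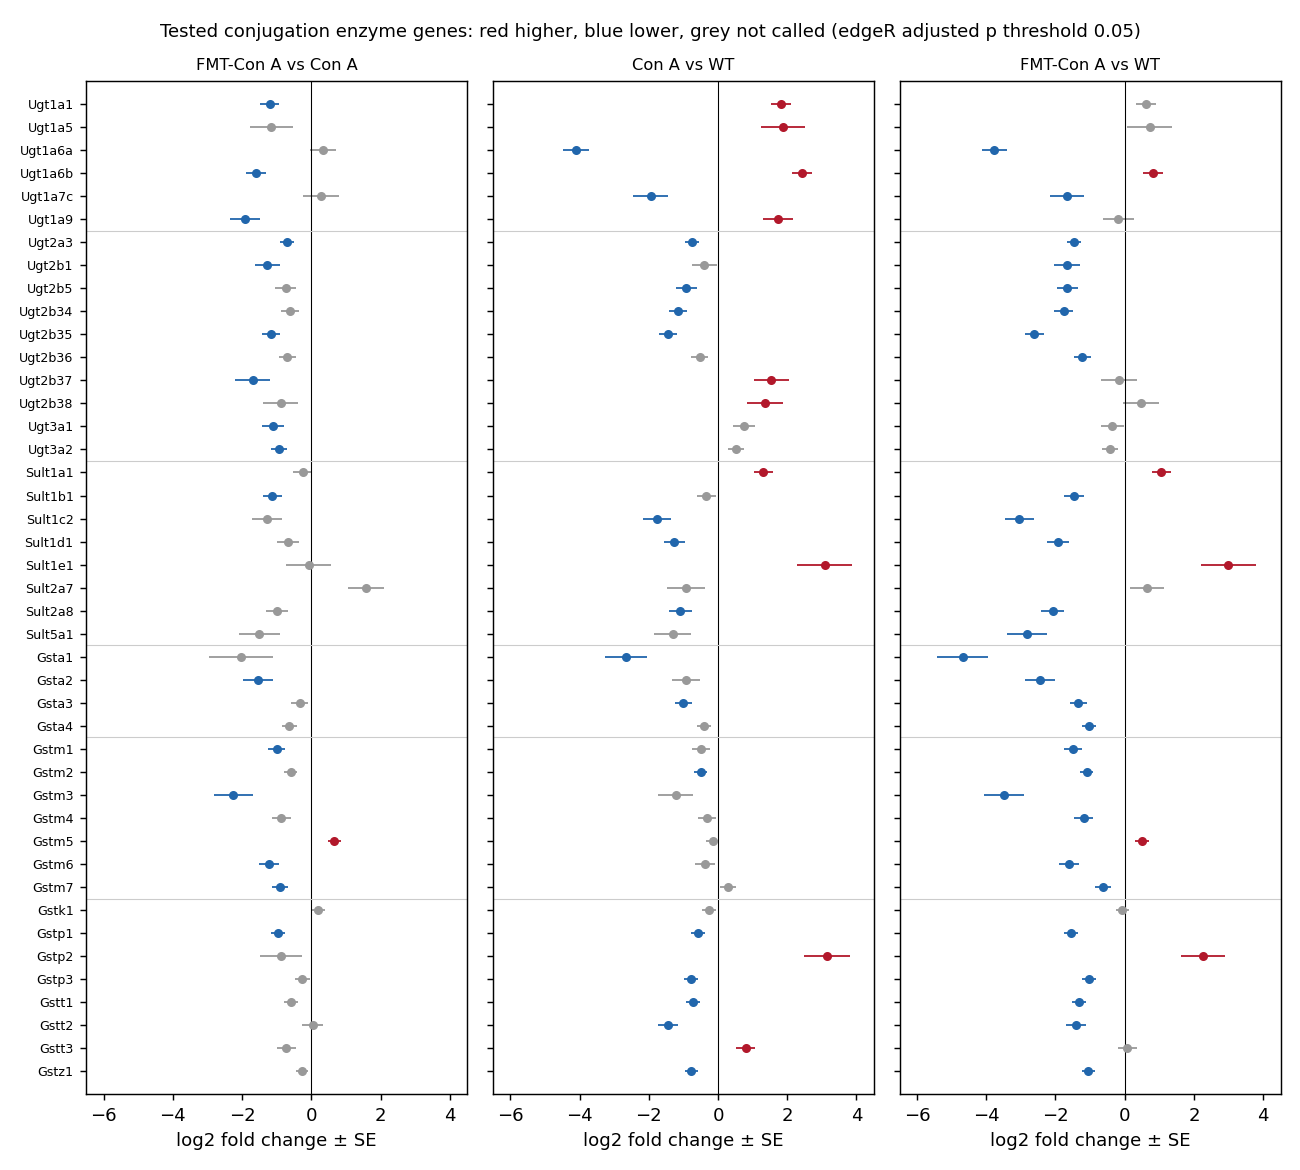
Log2 fold change with its standard error (x axis) of each of the 43 tested members (rows, in family blocks) in the 3 comparisons, red where called higher, blue where called lower and grey where not called. In Con A vs WT the members run from -4.10 (Ugt1a6a) to 3.14 (Gstp2), and in FMT-Con A vs Con A 1 member (Gstm5) is red.

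The UGT1A genes moved in opposite directions after the injection. In Con A against WT, Ugt1a1, Ugt1a5, Ugt1a6b and Ugt1a9 rose and Ugt1a6a and Ugt1a7c fell, and all 6 tested members were called. In FMT-Con A against Con A, Ugt1a1, Ugt1a6b and Ugt1a9 fell and the other 3 were not called. The genes lie in one cluster on chromosome 1, plus strand, in the order Ugt1a10, Ugt1a9, Ugt1a8, Ugt1a7c, Ugt1a6b, Ugt1a6a, Ugt1a5, Ugt1a2 and Ugt1a1. Each has its own promoter and first exon and is spliced to the same exons at the 3′ end, so reads from those shared exons cannot be assigned to one gene, and how the counting treated them is not given in the sources used here.

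The promoters of the gene that fell most and of the bilirubin-conjugating gene that rose are shown because the 2 differ in direction within one cluster. Both run from 250 bases before to 50 bases after the start in RefSeq's annotation of GRCm38.p6, on the plus strand, at chr1:88134559-88134858 for Ugt1a6a and chr1:88211709-88212008 for Ugt1a1. Capitals mark matches to an AP-1 site (TGANTCA), a GAS element (TTCNNNGAA) and an HNF1 half-site (GTTAAT, here on the opposite strand as ATTAAC), each searched on both strands.
Ugt1a6a: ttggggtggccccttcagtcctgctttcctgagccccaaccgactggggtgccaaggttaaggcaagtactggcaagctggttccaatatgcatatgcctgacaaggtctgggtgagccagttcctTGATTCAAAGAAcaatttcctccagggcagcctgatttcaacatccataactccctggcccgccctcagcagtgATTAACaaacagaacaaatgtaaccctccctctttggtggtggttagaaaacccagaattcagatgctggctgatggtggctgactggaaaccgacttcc
Ugt1a1: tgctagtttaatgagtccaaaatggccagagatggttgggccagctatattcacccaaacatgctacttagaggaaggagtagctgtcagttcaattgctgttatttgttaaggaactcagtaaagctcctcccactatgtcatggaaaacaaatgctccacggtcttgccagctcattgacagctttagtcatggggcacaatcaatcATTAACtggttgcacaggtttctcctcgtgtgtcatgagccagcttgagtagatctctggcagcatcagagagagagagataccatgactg
In Ugt1a6a the AP-1 match began at -124 and overlapped the GAS match, which began at -121, and the HNF1 half-site began at -50. Ugt1a1 had the HNF1 half-site alone, beginning at -41. AP-1, GAS and HNF1 half-site letters occurred in 7.81%, 8.30% and 7.10% of the 32851 promoters in the table, and the 2 sequences shared 48.0% of aligned bases. A match describes the letters and no binding was measured.

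Ugt1a6a, which glucuronidates small planar phenols, had 4.23, 2.47 and 3.51 CPM in FMT-Con A, 1.25, 4.55 and 2.28 CPM in Con A and 48.9, 43.4 and 47.2 CPM in WT. All 6 injected libraries lay about an order of magnitude below all 3 WT libraries, and the injected groups overlapped. The log2 fold change was -4.10 (SE 0.38, adjusted p = 1.14e-05) in Con A vs WT and -3.76 (SE 0.37, adjusted p = 2.37e-05) in FMT-Con A vs WT. Between FMT-Con A and Con A it was 0.34 (SE 0.37, adjusted p = 0.541), which without Con A 2 became 0.95 (adjusted p = 0.045). Ugt1a7c had 1.07, 1.28 and 0.457 CPM in FMT-Con A, 0.262, 1.16 and 0.869 CPM in Con A and 3.8, 2.62 and 2.55 CPM in WT. It too was lower in every injected library than in any WT library, with a log2 fold change of -1.95 (SE 0.50, adjusted p = 0.00667) in Con A vs WT.

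Ugt1a1, the enzyme that conjugates bilirubin, had 14.5, 17.0 and 14.9 CPM in FMT-Con A, 52.0, 23.7 and 31.3 CPM in Con A and 8.10, 8.61 and 13.7 CPM in WT. No group overlapped another: Con A was highest, FMT-Con A lay between and WT was lowest. The log2 fold change was 1.81 (SE 0.29, adjusted p = 0.000416) in Con A vs WT and -1.21 (SE 0.285, adjusted p = 0.0222) in FMT-Con A vs Con A. FMT-Con A stood 0.61 (SE 0.29) above WT on that scale, which was not called (adjusted p = 0.0932) but was without WT 3 (0.90, adjusted p = 0.032) and without Con A 1 (0.62, adjusted p = 0.0362). The fall against Con A was not called without Con A 1 (-0.82, adjusted p = 0.083), without FMT-Con A 1 or without FMT-Con A 3.

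Ugt1a6b, the neighbour of Ugt1a6a, had 6.12, 8.06 and 5.72 CPM in FMT-Con A, 26.6, 12.1 and 21.4 CPM in Con A and 2.97, 3.93 and 4.26 CPM in WT. Of Ugt1a6b's 100-base stretches, 70.9% occur in another gene, most often Ugt1a6a, so some reads cannot be placed between these genes. In Ugt1a6b the 3 groups were again separate in the order Con A, FMT-Con A, WT. It rose in Con A vs WT by 2.42 (SE 0.29, adjusted p = 6.4e-05), was lower in FMT-Con A than in Con A by -1.60 (SE 0.28, adjusted p = 0.00769) and was 0.83 higher in FMT-Con A than in WT (SE 0.29, adjusted p = 0.03), all on the log2 scale. The last of these was not called without WT 1 (adjusted p = 0.108), without WT 2 (0.0632) or without FMT-Con A 2 (0.0876). Ugt1a9 had 1.54, 1.66 and 1.49 CPM in FMT-Con A, 6.49, 3.25 and 7.99 CPM in Con A and 1.97, 0.748 and 2.59 CPM in WT. Its Con A libraries lay above all others, and FMT-Con A overlapped WT. The log2 fold changes were 1.73 (SE 0.44, adjusted p = 0.00603) in Con A vs WT and -1.92 (SE 0.44, adjusted p = 0.0199) in FMT-Con A vs Con A.

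Ugt1a5 was uneven within Con A, with 2.43, 5.22 and 2.17 CPM in FMT-Con A, 6.75, 2.04 and 12.8 CPM in Con A and 2.06, 0.888 and 2.92 CPM in WT. Con A 2 fell inside the WT range, and the rise of 1.88 in Con A vs WT (SE 0.65, adjusted p = 0.0274) was not called without Con A 1, without Con A 3, without WT 1 or without WT 2 (adjusted p = 0.0503 to 0.134 over those fits).

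Summed to one feature, the 9 genes had 29.9, 35.8 and 28.4 CPM in FMT-Con A, 93.6, 47.4 and 77.2 CPM in Con A and 69.0, 60.8 and 74.1 CPM in WT. The Con A and WT libraries overlapped in this sum (log2 fold change 0.10, SE 0.22, adjusted p = 0.712), although every tested gene in it was called. FMT-Con A lay below all other libraries, with -1.21 against Con A (SE 0.22, adjusted p = 0.00947) and -1.12 against WT (SE 0.22, adjusted p = 0.0019). Ugt1a6a made up 68.4% of the family's CPM in WT, while Ugt1a1 made up 49.3% in FMT-Con A and 49.0% in Con A. Which gene leads in WT depends on the length used: per kilobase of all exons the level was 10.8 CPM for Ugt1a6a and 4.55 CPM for Ugt1a1, and per kilobase of the exon bases they do not share it was 21.7 CPM and 26.3 CPM.

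**Figure D4:**
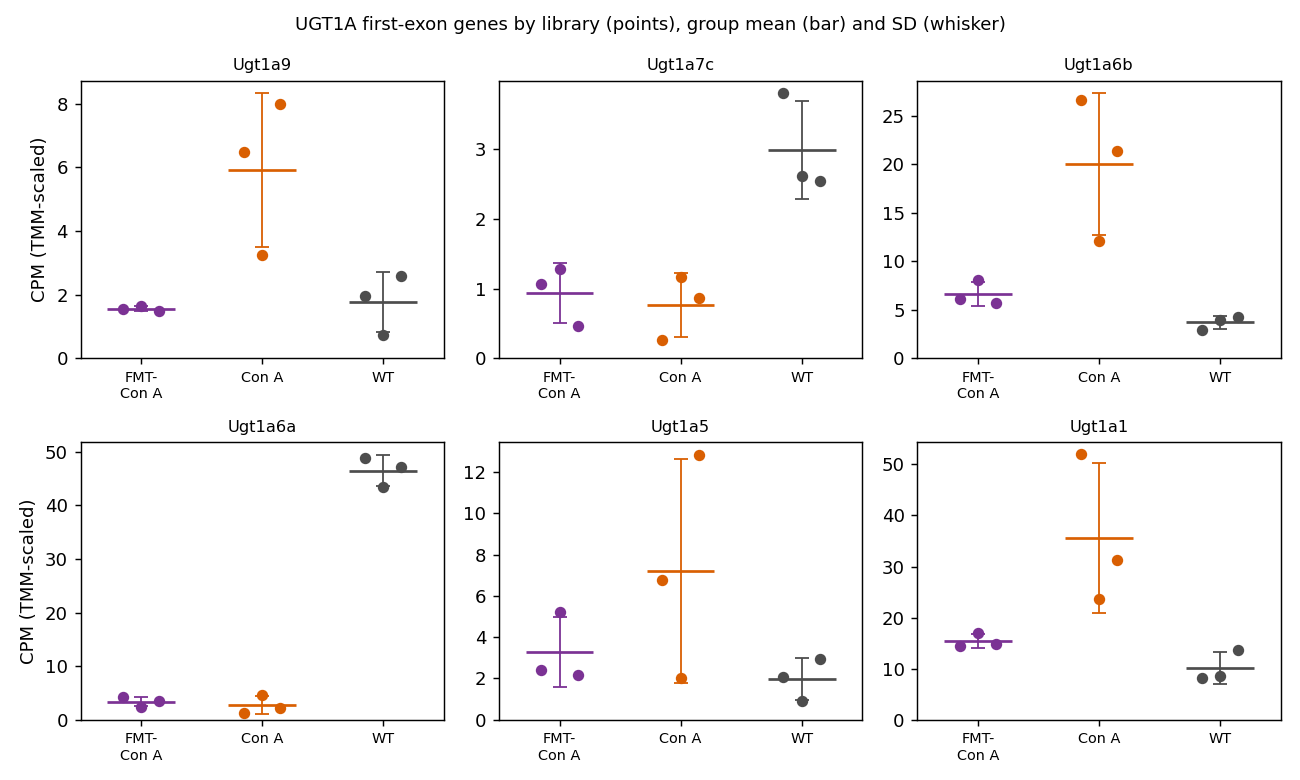
CPM (TMM-scaled, y axis, starting at 0 and scaled per panel) of the 6 tested UGT1A genes in each library (points) of FMT-Con A, Con A and WT, with the group mean (bar) and SD (whisker). Ugt1a6a has 2.70 CPM on average in Con A and 46.5 CPM in WT, while Ugt1a1 has 35.7 CPM in Con A and 10.1 CPM in WT.

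The UGT2 genes, whose enzymes glucuronidate steroids, bile acids and drugs, included members that fell and members that rose after the injection. In Con A vs WT, 4 of the 10 tested UGT2 and UGT3 members fell (Ugt2a3, Ugt2b5, Ugt2b34 and Ugt2b35), 2 rose (Ugt2b37 and Ugt2b38) and 4 were not called. In FMT-Con A vs Con A 6 fell and 4 were not called, with all 10 log2 fold changes below 0 (-1.70 to -0.61), and each of the 6 calls was lost in at least 3 of the 9 fits that left out 1 library. Against WT, FMT-Con A showed 6 falls and the 4 not called were Ugt2b37, Ugt2b38, Ugt3a1 and Ugt3a2.

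Ugt2b1 had 117, 243 and 122 CPM in FMT-Con A, 555, 384 and 228 CPM in Con A and 434, 606 and 489.5 CPM in WT. Con A 1 lay within the WT range, and FMT-Con A 2 lay above Con A 3. Its log2 fold change was -0.39 in Con A vs WT (SE 0.36, adjusted p = 0.355), -1.28 in FMT-Con A vs Con A (SE 0.36, adjusted p = 0.0396) and -1.67 in FMT-Con A vs WT (SE 0.36, adjusted p = 0.00316). The fall against Con A passed the threshold in 2 of 9 fits that left out 1 library, those without Con A 3 and without FMT-Con A 2.

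Ugt2b35 had 13.8, 20.1 and 14.1 CPM in FMT-Con A, 49.2, 33.5 and 25.0 CPM in Con A and 83.8, 123.3 and 86.4 CPM in WT. Its 3 groups did not overlap, and it fell both in Con A vs WT (log2 fold change -1.45, SE 0.26, adjusted p = 0.000865) and in FMT-Con A vs Con A (-1.17, SE 0.26, adjusted p = 0.0188). Ugt2b34 had 86.9, 122.9 and 85.6 CPM in FMT-Con A, 218, 133 and 101 CPM in Con A and 321, 334 and 348 CPM in WT. All injected libraries lay below WT in this gene, with -1.15 in Con A vs WT (SE 0.26, adjusted p = 0.00361), -1.76 in FMT-Con A vs WT (SE 0.27, adjusted p = 0.00039) and an uncalled -0.61 in FMT-Con A vs Con A (SE 0.26, adjusted p = 0.131).

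Ugt2b5 had 129, 228 and 132 CPM in FMT-Con A, 352, 303 and 159.7 CPM in Con A and 474, 526 and 542 CPM in WT. It fell by 0.92 on the log2 scale in Con A vs WT (SE 0.30, adjusted p = 0.0229), a call lost without Con A 3 (adjusted p = 0.0569) or WT 3 (adjusted p = 0.0547), and by 1.66 in FMT-Con A vs WT (SE 0.31, adjusted p = 0.0013). Ugt2b5 and Ugt2b38 share 24.7% and 24.2% of their 100-base stretches with another gene, so some reads cannot be placed between near copies. Per kilobase of exon, Ugt2b5, Ugt2b36 and Ugt2b1 were the 3 highest genes of the family in all groups, and Ugt2b36 led in FMT-Con A (117 CPM per kilobase) and in Con A (189 CPM per kilobase), beside 273 CPM per kilobase in WT. Ugt2b36 had 204, 315 and 203 CPM in FMT-Con A, 481, 426 and 261 CPM in Con A and 536, 562 and 588 CPM in WT, and fell in FMT-Con A vs WT alone (-1.23, SE 0.25, adjusted p = 0.00216).

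The 2 genes that rose in Con A vs WT were Ugt2b37 and Ugt2b38. Ugt2b37 had 0.946, 1.94 and 0.648 CPM in FMT-Con A, 6.01, 2.96 and 2.40 CPM in Con A and 1.05, 0.842 and 1.96 CPM in WT. Con A was above both other groups, with a log2 fold change of 1.54 in Con A vs WT (SE 0.50, adjusted p = 0.0218) and -1.70 in FMT-Con A vs Con A (SE 0.51, adjusted p = 0.0469). Ugt2b38 had 6.31, 20.2 and 5.37 CPM in FMT-Con A, 28.6, 19.5 and 10.1 CPM in Con A and 6.08, 6.87 and 9.77 CPM in WT, so that the lowest Con A library was just above the highest WT library (log2 fold change 1.35, SE 0.52, adjusted p = 0.0421). Neither rise held with every library left out in turn, as the Con A vs WT call for Ugt2b37 was lost in 3 and that for Ugt2b38 in 5 of 9 such fits.

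UGT3A enzymes differ from the rest in that the human counterparts use sugars other than glucuronic acid. Ugt3a2 had 79.6, 128 and 79.3 CPM in FMT-Con A, 238, 154 and 159.8 CPM in Con A and 126, 121 and 139 CPM in WT. Con A was above both other groups, which overlapped, and the fall in FMT-Con A vs Con A was called (log2 fold change -0.94, SE 0.23, adjusted p = 0.0242) while the difference of 0.52 in Con A vs WT was not (SE 0.23, adjusted p = 0.0701). Ugt3a1 showed -1.11 in FMT-Con A vs Con A (SE 0.33, adjusted p = 0.0463) with overlapping libraries. Ugt2a3 fell in all 3 comparisons, with 51.5, 63.7 and 57.3 CPM in FMT-Con A, 117, 98.6 and 63.3 CPM in Con A and 150.1, 166 and 157 CPM in WT. WT was separate in Ugt2a3, whereas Con A 3 lay just below FMT-Con A 2.

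Among the sulfotransferases the phenol-conjugating Sult1a1 and the estrogen-conjugating Sult1e1 rose after the injection. In Con A vs WT, 2 of the 8 tested members rose, 3 fell (Sult1c2, Sult1d1 and Sult2a8) and 3 were not called. Between FMT-Con A and Con A, Sult1b1 alone was called, as lower. Sult1a1 and Sult1e1 were also higher in FMT-Con A than in WT, where 5 members were lower and Sult2a7 was not called.

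Sult1a1 had 393, 631 and 378 CPM in FMT-Con A, 597, 698 and 375 CPM in Con A and 254, 190.1 and 231 CPM in WT. All 6 injected libraries were above WT and the injected groups overlapped. The log2 fold change was 1.31 in Con A vs WT (SE 0.27, adjusted p = 0.00202), 1.06 in FMT-Con A vs WT (SE 0.27, adjusted p = 0.00736) and -0.25 in FMT-Con A vs Con A (SE 0.27, adjusted p = 0.536). Sult2a8, which sulfates bile acids in mouse liver, had 146, 285 and 173 CPM in FMT-Con A, 538, 438 and 225 CPM in Con A and 760.3, 858 and 934 CPM in WT. WT was above every injected library in Sult2a8, and FMT-Con A 2 lay above Con A 3.

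Sult2a8 fell by 1.09 on the log2 scale in Con A vs WT (SE 0.33, adjusted p = 0.0153) and by 2.08 in FMT-Con A vs WT (SE 0.34, adjusted p = 0.000585), and its -0.99 in FMT-Con A vs Con A was not called (SE 0.33, adjusted p = 0.065). With these changes the leading sulfotransferase differed between groups. Sult1a1 took 62.5% of the family's CPM in FMT-Con A, 51.3% in Con A and 16.6% in WT, whereas Sult2a8 took 26.9% in FMT-Con A, 36.9% in Con A and 62.7% in WT. The order was the same per kilobase of exon, at 310.1 CPM for Sult1a1 and 61.3 CPM for Sult2a8 in FMT-Con A, 369 CPM and 122 CPM in Con A, and 149 CPM and 259 CPM in WT.

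Sult1e1 was low, with 1.45, 8.54 and 1.03 CPM in FMT-Con A, 3.45, 3.20 and 4.80 CPM in Con A and 0.412, 0.608 and 0.334 CPM in WT. Every injected library was above WT, and FMT-Con A 2 stood apart from its own group. The log2 fold change was 3.08 in Con A vs WT (SE 0.78, adjusted p = 0.00634) and 3.00 in FMT-Con A vs WT (SE 0.78, adjusted p = 0.00807), the second being 1.47 without FMT-Con A 2. Between FMT-Con A and Con A it was -0.08 (SE 0.66, adjusted p = 0.949), and -1.60 without FMT-Con A 2 (adjusted p = 0.0109), so that 1 library decided whether a difference was called.

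Sult1d1, a mouse enzyme that sulfates catecholamines, had 46.0, 97.1 and 54.5 CPM in FMT-Con A, 83.3, 112 and 119.9 CPM in Con A and 276, 311 and 168 CPM in WT. Its fall was called in Con A vs WT (log2 fold change -1.26, SE 0.31, adjusted p = 0.00543), where no libraries overlapped. Sult1c2 had 0.662, 0.617 and 0.572 CPM in FMT-Con A, 2.62, 1.21 and 0.745 CPM in Con A and 4.71, 4.58 and 6.05 CPM in WT. The 3 groups did not overlap in Sult1c2, and the falls against WT were -1.76 in Con A (SE 0.39, adjusted p = 0.00307) and -3.04 in FMT-Con A (SE 0.42, adjusted p = 0.000216).

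Sult1b1, known for sulfating thyroid hormones and phenols, had 5.68, 8.35 and 4.61 CPM in FMT-Con A, 19.2, 11.1 and 10.3 CPM in Con A and 14.7, 19.3 and 17.2 CPM in WT. FMT-Con A was below all other libraries, and the fall was -1.13 against Con A (SE 0.28, adjusted p = 0.0262) and -1.46 against WT (SE 0.28, adjusted p = 0.00153). Sult5a1 was called lower in FMT-Con A vs WT alone (log2 fold change -2.82, SE 0.59, adjusted p = 0.00246), with 0.599, 1.85 and 0.495 CPM in FMT-Con A and 6.05 to 7.78 CPM in WT. Sult2a7, the one member of the Sult2a1 to Sult2a7 cluster that passed the filter, had 1.14, 2.13 and 0.686 CPM in FMT-Con A, 0.680, 0.436 and 0.207 CPM in Con A and 0.823, 0.608 and 1.04 CPM in WT, and was called in no comparison.

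The alpha-class GSTs, which detoxify lipid peroxidation products and toxins such as aflatoxin, were all lower in FMT-Con A than in WT. In Con A vs WT, 2 of 4 fell (Gsta1 and Gsta3) and Gsta2 and Gsta4 were not called. Gsta2 alone was called in FMT-Con A vs Con A, as lower. Gsta3 made up 86.1 to 89.5% of the class in the 3 groups.

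Gsta3, the constitutive enzyme tied in mice to resistance to aflatoxin, had 234, 317 and 222 CPM in FMT-Con A, 458, 251 and 270.3 CPM in Con A and 659.6, 613 and 687 CPM in WT. Both injected groups lay below WT and overlapped each other. Its log2 fold change was -1.0 in Con A vs WT (SE 0.24, adjusted p = 0.00471), -1.34 in FMT-Con A vs WT (SE 0.24, adjusted p = 0.0011) and -0.34 in FMT-Con A vs Con A (SE 0.24, adjusted p = 0.343), the last being 0 without Con A 1.

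Gsta2, an inducible alpha-class gene, had 4.64, 4.70 and 3.43 CPM in FMT-Con A, 16.3, 16.6 and 4.18 CPM in Con A and 23.2, 19.3 and 27.1 CPM in WT. Con A 3 lay among the FMT-Con A libraries, apart from Con A 1 and Con A 2. The fall in FMT-Con A vs Con A was -1.53 (SE 0.43, adjusted p = 0.0379) and passed the threshold in 2 of 9 fits that left out 1 library, while against WT it was -2.45 (SE 0.43, adjusted p = 0.000949). Gsta1 was close to the limit of detection, with 3 counts over the FMT-Con A libraries, 11 over Con A and 75 over WT, and a level of 0.549, 0.888 and 1.84 CPM in WT. The pooled ratio of FMT-Con A to WT was 0.034 (95% exact interval 0.00686 to 0.103, counting error only), and the fall in Con A vs WT was -2.64 on the log2 scale (SE 0.61, adjusted p = 0.00356). Of Gsta1's 100-base stretches, 80.6% occur in another gene, so its counts may be incomplete or shared. Summed with Gsta2 the pair was not called in Con A vs WT (-0.96, SE 0.40, adjusted p = 0.0588).

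Gsta4, which conjugates the lipid aldehyde hydroxynonenal, was called in FMT-Con A vs WT alone (log2 fold change -1.03, SE 0.21, adjusted p = 0.00217), with 22.9, 31.1 and 24 CPM in FMT-Con A and 49.2 to 58.4 CPM in WT. Its Con A libraries ran from 27.3 to 49.3 CPM and overlapped both.

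The mu class conjugates epoxides and other electrophiles. In Con A vs WT Gstm2 alone was called, as lower, and 6 of 7 were not. In FMT-Con A vs Con A, Gstm1, Gstm3, Gstm6 and Gstm7 fell, Gstm5 rose and Gstm2 and Gstm4 were not called. All 5 of these calls were lost without Con A 1, without FMT-Con A 1 or without FMT-Con A 3. Against WT, FMT-Con A showed falls in 6 and a rise in Gstm5. The fall of Gstm7 against WT passed the threshold in 3 of 9 fits that left out 1 library. The 7 genes lie side by side on chromosome 3.

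Gstm1, the leading mu-class gene of the liver, had 334, 512 and 327 CPM in FMT-Con A, 956, 883 and 512 CPM in Con A and 1097, 1106 and 1117 CPM in WT. The WT libraries agreed closely and lay above all others, and the lowest Con A library and the highest FMT-Con A library met near 512 CPM. The log2 fold change was -0.50 in Con A vs WT (SE 0.25, adjusted p = 0.11), -1.0 in FMT-Con A vs Con A (SE 0.26, adjusted p = 0.0285) and -1.50 in FMT-Con A vs WT (SE 0.26, adjusted p = 0.000811). Against Con A the fall passed the threshold in 3 of 9 fits that left out 1 library, those without WT 3, without Con A 3 and without FMT-Con A 2.

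Gstm3 had 0.725, 2.18 and 0.838 CPM in FMT-Con A, 7.53, 8.14 and 1.82 CPM in Con A and 10.8, 16.2 and 13.7 CPM in WT. Con A 3 lay within the FMT-Con A range, and WT was above every injected library. It had the largest fall of the called members in FMT-Con A vs Con A (log2 fold change -2.25, SE 0.57, adjusted p = 0.0276), beside -1.23 in Con A vs WT, which was not called (SE 0.51, adjusted p = 0.0592).

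Gstm6 had 43.8, 79.0 and 38.6 CPM in FMT-Con A, 157, 132 and 87.7 CPM in Con A and 149, 179.8 and 160.2 CPM in WT. FMT-Con A lay below all other libraries, and its fall against Con A was -1.23 (SE 0.29, adjusted p = 0.0216). Gstm4, with -0.87 in FMT-Con A vs Con A (SE 0.27, adjusted p = 0.0533), was not called. Gstm7 showed -0.90 in FMT-Con A vs Con A (SE 0.24, adjusted p = 0.0315), again with no overlap. Gstm2 had 45.1, 68.9 and 43.8 CPM in FMT-Con A, 85.6, 83.6 and 69.5 CPM in Con A and 106, 104 and 127 CPM in WT, with separate groups in that order. Its fall in Con A vs WT (-0.50, SE 0.19, adjusted p = 0.0395) passed the threshold in 3 of 9 fits that left out 1 library, all of which left out an FMT-Con A library.

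Gstm5 was the exception, with 11.1, 8.35 and 10.8 CPM in FMT-Con A, 7.27, 5.48 and 6.46 CPM in Con A and 6.81, 6.17 and 8.43 CPM in WT. FMT-Con A was above all Con A libraries, and FMT-Con A 2 lay within the WT range. The rise was 0.66 against Con A (SE 0.19, adjusted p = 0.042) and 0.50 against WT (SE 0.19, adjusted p = 0.0425). Of the 9 fits that left out 1 library, the first passed the threshold in 2 and the second in 5. The 2 FMT-Con A libraries with the highest Gstm5 are those with the most muscle transcripts, a relation that was not tested, and with FMT-Con A 2 as the lone FMT-Con A library the value against Con A was 0.38 and not called (adjusted p = 0.499).

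Of the pi, theta, kappa and zeta classes, the pi-class pair Gstp1 and Gstp2 moved in opposite directions. In Con A vs WT, Gstp2 and Gstt3 rose, 5 members fell (Gstp1, Gstp3, Gstt1, Gstt2 and Gstz1) and Gstk1 was not called. Gstp1 alone was called in FMT-Con A vs Con A, as lower. Gstp2 was also higher in FMT-Con A than in WT, the same 5 were lower, and Gstk1 and Gstt3 were not called.

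Gstp1, the abundant pi-class enzyme of male mouse liver that conjugates acrolein and similar electrophiles, had 289.8, 233 and 272 CPM in FMT-Con A, 556, 593 and 396 CPM in Con A and 689, 934 and 696 CPM in WT. The 3 groups were separate in that rising order. The log2 fold change was -0.59 in Con A vs WT (SE 0.20, adjusted p = 0.0259), -0.96 in FMT-Con A vs Con A (SE 0.20, adjusted p = 0.0148) and -1.54 in FMT-Con A vs WT (SE 0.20, adjusted p = 0.000152). Without Con A 3 or without WT 2 the first of these was not called (adjusted p = 0.0869 and 0.0892).

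Gstp2, a close copy that is much weaker as an enzyme, had 35.6, 13.4 and 37.9 CPM in FMT-Con A, 29.9, 111 and 18.5 CPM in Con A and 6.63, 6.83 and 4.59 CPM in WT. Every injected library was above WT, and Con A 2 stood far above the other Con A libraries. The rise was 3.14 in Con A vs WT (SE 0.66, adjusted p = 0.00207) and 2.27 in FMT-Con A vs WT (SE 0.64, adjusted p = 0.0119), and -0.87 between FMT-Con A and Con A was not called (SE 0.60, adjusted p = 0.328). Of the 100-base stretches of Gstp1 and Gstp2, 25.1% and 46.9% occur in another gene. Summed, the pair was lower in FMT-Con A than in Con A (-0.95, SE 0.22, adjusted p = 0.0218) and was not called in Con A vs WT (-0.46, SE 0.22, adjusted p = 0.0965).

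Promoters of this pair are shown because near copies differed in direction. They come from RefSeq on GRCm38.p6, minus strand, written 5′ to 3′ along the gene, at chr19:4042172-4042471 for Gstp2 and chr19:4037863-4038162 for Gstp1. Capitals mark an AP-1 site (TGANTCA) and, in Gstp1, the core of a xenobiotic response element (GCGTG).
Gstp2: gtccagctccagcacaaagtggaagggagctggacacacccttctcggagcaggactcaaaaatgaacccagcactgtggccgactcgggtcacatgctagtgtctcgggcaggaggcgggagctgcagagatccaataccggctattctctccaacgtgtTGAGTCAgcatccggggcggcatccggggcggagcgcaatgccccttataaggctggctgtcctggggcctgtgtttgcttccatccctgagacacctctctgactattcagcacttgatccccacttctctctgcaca
Gstp1: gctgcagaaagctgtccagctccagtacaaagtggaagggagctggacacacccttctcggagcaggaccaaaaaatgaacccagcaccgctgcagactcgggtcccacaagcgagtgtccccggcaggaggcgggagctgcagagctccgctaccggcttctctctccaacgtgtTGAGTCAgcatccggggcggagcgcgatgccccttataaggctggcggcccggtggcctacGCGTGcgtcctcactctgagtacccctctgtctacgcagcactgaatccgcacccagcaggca
The 2 sequences were identical in 243 of 318 aligned columns (76.4%). The AP-1 match began at -89 in Gstp2 and at -74 in Gstp1, and the GCGTG match of Gstp1 began at -13 and had no counterpart in Gstp2. Such letters are common, as 7.81% of all promoters held the AP-1 site and 32.4% the GCGTG core. The letters TGACNNNGC, searched for as an antioxidant response element and present in 12.4%, were in neither window. Both windows read TGAGTCAGC at the AP-1 match, with G in place of the C of those letters. Other forms of the antioxidant response element were not searched, so its absence cannot be read from this. Of the 64 promoters found for 54 of the 62 members, 20.3% held an AP-1 site, 21.9% an HNF1 half-site, 20.3% a C/EBP site (TTGCNNAA) and 23.4% a TATA box (TATAAA), beside 7.81%, 7.10%, 10.8% and 13.6% of all promoters. Shares below those of all promoters were found for the letters TGACNNNGC (4.69%), the GCGTG core (20.3%) and the GAS element (6.25%, against 8.30%). Several members have near copies, so these shares are a description with no test.

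Gstz1, the maleylacetoacetate isomerase of tyrosine breakdown, had 225, 315 and 223 CPM in FMT-Con A, 346, 323 and 255 CPM in Con A and 506, 541 and 531 CPM in WT. The injected groups overlapped and both lay below WT, with -0.77 in Con A vs WT (SE 0.18, adjusted p = 0.00397), -1.05 in FMT-Con A vs WT (SE 0.18, adjusted p = 0.000828) and -0.28 in FMT-Con A vs Con A (SE 0.18, adjusted p = 0.302). Gstt1, which acts on small halogenated compounds, had 72.5, 81.7 and 61.9 CPM in FMT-Con A, 134, 109 and 82.7 CPM in Con A and 172, 158 and 209 CPM in WT. Its groups were separate, with a fall of -0.73 in Con A vs WT (SE 0.20, adjusted p = 0.00869) and an uncalled -0.59 in FMT-Con A vs Con A (SE 0.20, adjusted p = 0.0645) that was called without Con A 3 (-0.75, adjusted p = 0.0283).

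Gstt2 fell most in these classes in Con A vs WT (-1.44, SE 0.30, adjusted p = 0.00192), with 21.2, 28.6 and 20 CPM in FMT-Con A, 28.6, 23.1 and 16.5 CPM in Con A and 55.9, 39.9 and 89.3 CPM in WT. Gstt3, in the same cluster on chromosome 10, rose (0.80, SE 0.28, adjusted p = 0.0291), with 29.5, 15.9 and 14.7 CPM in Con A and 11.0 to 12.0 CPM in WT, a call lost without Con A 1 (0.41, adjusted p = 0.142) and without any 1 of the WT libraries. Gstp3, another pi-class gene, had 17.3, 20.2 and 15.8 CPM in FMT-Con A, 16.5, 18.3 and 28.9 CPM in Con A and 31.5, 41.8 and 36.2 CPM in WT, with a fall in Con A vs WT (-0.78, SE 0.21, adjusted p = 0.00817). Gstk1, found in mitochondria and peroxisomes, had 36.9 to 59.9 CPM in FMT-Con A, 33.4 to 44.1 CPM in Con A and 43.8 to 58.0 CPM in WT, and was called in no comparison.

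**Figure D5:**
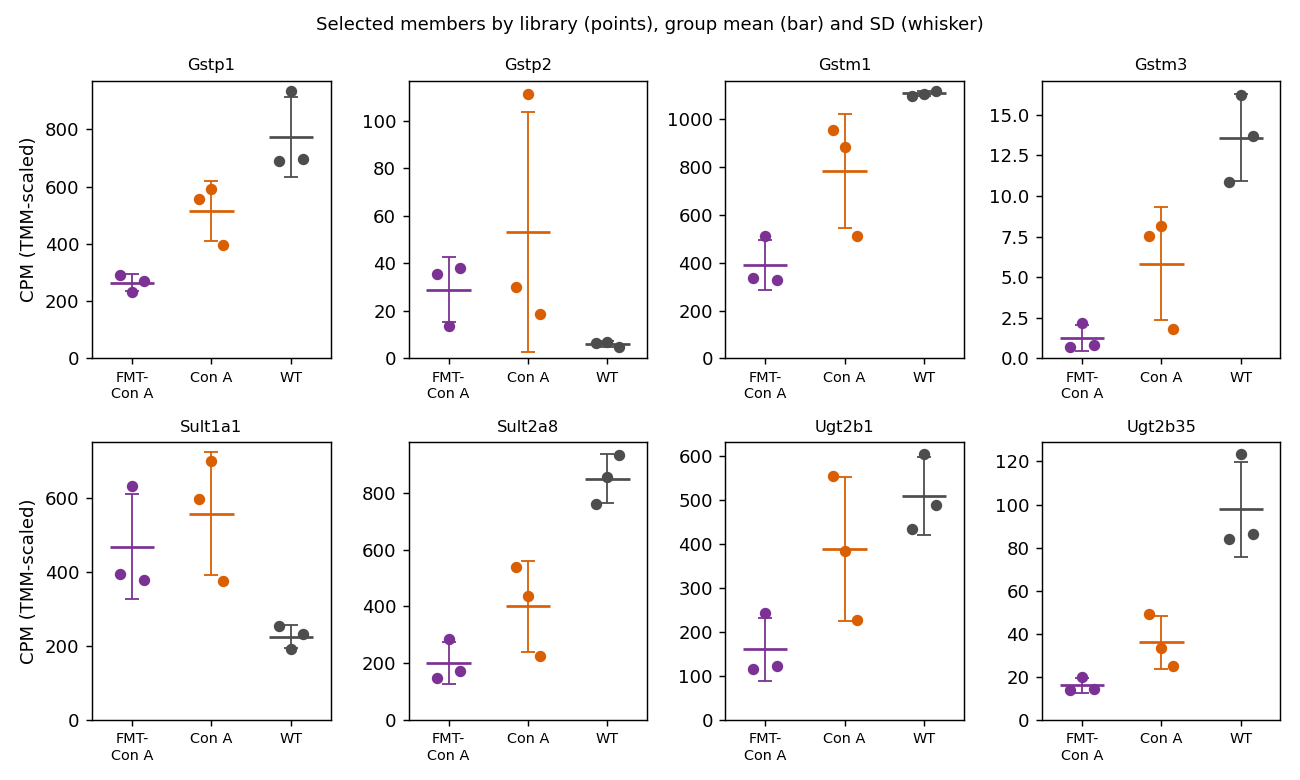
CPM (TMM-scaled, y axis, from 0, scaled per panel) of 8 members in each library (points), with the group mean (bar) and SD (whisker), for FMT-Con A, Con A and WT. Gstp1 averages 265, 515 and 773 CPM in these groups, whereas Sult1a1 averages 467, 557 and 225 CPM.

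The filter left out 19 members, which are therefore not described by any test. They are Gstt4, Sult1c1, Sult2a1, Sult2a2, Sult2a3, Sult2a4, Sult2a5, Sult2a6, Sult2b1, Sult3a1, Sult3a2, Sult4a1, Sult6b1, Sult6b2, Ugt1a2, Ugt1a8, Ugt1a10, Ugt2a1 and Ugt2a2. Sult2a1 to Sult2a6 and Sult3a1 and Sult3a2, which are expressed mainly in female mouse liver, had 0 to 2 counts in every library. Ugt2a1 and Ugt2a2 overlap in 98.8% and 94.5% of their exon bases, and reads there may not have been assigned to either.

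The spread within a group was wider for the members than for the typical gene. The median coefficient of variation over the tested members was 28.8% in FMT-Con A, 35.1% in Con A and 15.9% in WT, against 16.3%, 20.8% and 12.9% over all genes tested. FMT-Con A 2 was the highest library of its group in 37 of the 43 tested members, Con A 1 the highest in 29 and Con A 3 the lowest in 28. The injected groups met where FMT-Con A 2 and Con A 3 crossed, as the plot of family sums shows. FMT-Con A 1 and FMT-Con A 3 were the most alike pair within any group. Their counts differed by a median chi-square of 4.21 times the counting noise over the members and 2.53 times over all genes. The other pairs of FMT-Con A stood at 72.4 and 93.4 times over the members, and the WT pairs at 13.2 to 22 times. FMT-Con A 1 and FMT-Con A 3 were kept as separate libraries, and whether they are independent was not tested. If they are not, the spread within FMT-Con A is understated and p-values that use that group are too small.

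The lists for glutathione, UDP-glucuronic acid and PAPS hold genes that make or carry these groups and genes that break them down or release them. In the glutathione list (15 genes tested), 4 were higher and 5 lower in Con A vs WT, 3 higher and 4 lower in FMT-Con A vs Con A, and 6 higher and 5 lower in FMT-Con A vs WT. Among all genes tested, these 3 comparisons called 32.5%, 6.26% and 31.2% higher and 30.9%, 10.6% and 27.9% lower, in the same order. Gclc, the catalytic subunit of the enzyme that limits glutathione synthesis, had 55.3, 64.6 and 60.9 CPM in FMT-Con A, 102 to 143 CPM in Con A and 243 to 308 CPM in WT. The 3 groups were separate, with -1.20 in Con A vs WT (SE 0.16, adjusted p = 0.00013) and -1.03 in FMT-Con A vs Con A (SE 0.16, adjusted p = 0.00531). Chac2, which degrades glutathione, fell by 1.99 in Con A vs WT (SE 0.12, adjusted p = 1.085e-06), and Ggt6 rose by 1.75 in FMT-Con A vs Con A (SE 0.19, adjusted p = 0.00167). The cystine importer Slc7a11 had 0.724 to 0.901 CPM in FMT-Con A, 1.86 to 3.19 CPM in Con A and 2 counts over the WT libraries, with a fall of -1.71 (SE 0.34, adjusted p = 0.013) in FMT-Con A vs Con A and a pooled ratio of Con A to WT of 89.4 (95% exact interval 24.4 to 744, counting error only).

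Of 11 genes for UDP-glucuronic acid, 6 were higher and 1 (Slc35d1, -0.85, SE 0.16, adjusted p = 0.000973) lower in Con A vs WT, 3 were lower in FMT-Con A vs Con A, and 5 were higher and 3 lower in FMT-Con A vs WT. Of all genes tested, 32.5%, 6.26% and 31.2% were called higher in these comparisons, in that order, and 30.9%, 10.6% and 27.9% lower. Pgm2 rose by 2.48 in Con A vs WT (SE 0.18, adjusted p = 2.81e-06), Nme2 rose by 2.73 (SE 0.43, adjusted p = 0.00035) and Pgm1 by 1.04 (SE 0.17, adjusted p = 0.000384). Ugdh, which makes the donor itself, was called in no comparison. The 3 that fell in FMT-Con A vs Con A were Pgm2 (-0.60, SE 0.17, adjusted p = 0.0376), Gusb (-0.64, SE 0.19, adjusted p = 0.0422) and Slc37a4 (-0.73, SE 0.20, adjusted p = 0.037). For the sulfate donor PAPS, 4 of 11 were higher and 2 lower in Con A vs WT, and 4 were lower in FMT-Con A vs Con A. The shares of all genes given above apply to this list too. Papss2, the liver's PAPS synthase, had 22.7, 35.8 and 23.4 CPM in FMT-Con A, 30.3 to 54.6 CPM in Con A and 96.2 to 176 CPM in WT (log2 fold change in Con A vs WT -1.78, SE 0.30, adjusted p = 0.00054). Bpnt1, which breaks down the spent cofactor, rose in Con A vs WT (1.48, SE 0.24, adjusted p = 0.000424), as did the sulfatase Arsa (1.85, SE 0.25, adjusted p = 0.00015). The 4 that fell in FMT-Con A vs Con A were Bpnt1 (-0.86, SE 0.24, adjusted p = 0.0362), Arsa (-0.86, SE 0.25, adjusted p = 0.0422), Arsb (-1.10, SE 0.26, adjusted p = 0.0221) and the sulfate carrier Slc26a1 (-0.84, SE 0.15, adjusted p = 0.00759). Against WT, 3 were higher and 2 lower in FMT-Con A.

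Of 18 conjugating enzymes outside the families chosen, 10 were lower and 3 higher in Con A vs WT. Over all genes tested 30.9% were lower and 32.5% higher in that comparison. In FMT-Con A vs WT 12 were lower and 3 higher, against 27.9% and 31.2% of all genes. Glyat, the glycine N-acyltransferase, fell to 38.9 to 68.5 CPM in FMT-Con A and 47.6 to 71.3 CPM in Con A, against 257 to 337 CPM in WT (Con A vs WT -2.31, SE 0.24, adjusted p = 2.76e-05). The 3 that rose in Con A vs WT were Nnmt, As3mt and Baat. Nnmt, the nicotinamide N-methyltransferase, had 343, 562 and 333 CPM in FMT-Con A, 97.5, 197 and 109.6 CPM in Con A and 4.38 to 7.50 CPM in WT, with separate groups and a rise in both steps (4.57, SE 0.37, adjusted p = 5.24e-06 and 1.61, SE 0.32, adjusted p = 0.013). Baat, which conjugates bile acids, rose by 1.37 in Con A vs WT (SE 0.18, adjusted p = 9.93e-05), and As3mt by 1.55 (SE 0.23, adjusted p = 0.000237). In FMT-Con A vs Con A, Mgst3 rose besides Nnmt (1.70, SE 0.34, adjusted p = 0.0127) and Hpgds alone fell (-1.27, SE 0.28, adjusted p = 0.0174). Mgst3 was highest in the FMT-Con A libraries with the most muscle transcripts, at 37.5, 12.5 and 34 CPM, and the part of muscle in it was not tested.

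Among 14 xenobiotic sensors and liver regulators, 7 were lower and 4 (Ahr, Nfe2l2, Keap1 and Hnf4a) higher in Con A vs WT. In FMT-Con A vs Con A 3 were lower and 1 higher, and in FMT-Con A vs WT 7 were lower and 2 higher. Of all genes tested, 63.4%, 16.8% and 59% were called in either direction in these comparisons, in that order. Nr1i3, which encodes the sensor CAR, had 1.32, 1.66 and 1.68 CPM in FMT-Con A, 3.19, 1.55 and 2.07 CPM in Con A and 122, 129 and 138 CPM in WT (Con A vs WT -5.84, SE 0.24, adjusted p = 1.57e-07). Nfe2l2, which encodes NRF2, was 66.3, 40.2 and 68.5 CPM in FMT-Con A, 192, 205 and 148 CPM in Con A and 79.7 to 99.1 CPM in WT. It rose by 1.03 in Con A vs WT (SE 0.21, adjusted p = 0.00205) and fell by 1.64 in FMT-Con A vs Con A (SE 0.22, adjusted p = 0.00285). Ahr (-1.07, SE 0.31, adjusted p = 0.0409) and Ppara (-0.69, SE 0.20, adjusted p = 0.0424) also fell in FMT-Con A vs Con A and Esr1 rose (0.83, SE 0.23, adjusted p = 0.0367). Of 8 exporters of conjugates, 5 were lower in Con A vs WT and 4 in FMT-Con A vs Con A, while Abcb1b rose in Con A vs WT (2.57, SE 0.34, adjusted p = 0.000111) and Abcc4 rose in both (1.62, SE 0.46, adjusted p = 0.0114 and 1.39, SE 0.41, adjusted p = 0.0439). In these 2 comparisons 30.9% and 10.6% of all genes were called lower, and 32.5% and 6.26% higher. Abcc4 had 5.27, 1.61 and 5.37 CPM in FMT-Con A and 1.41 to 1.70 CPM in Con A, so that FMT-Con A 2 lay within the Con A range and the libraries with the most muscle transcripts were the high ones, whose part in it was not tested. Abcc2, the canalicular pump for bilirubin glucuronides and glutathione conjugates, had 15.7, 32.3 and 15.6 CPM in FMT-Con A, 46.8 to 70.8 CPM in Con A and 264 to 269 CPM in WT. It fell in Con A vs WT (-2.09, SE 0.29, adjusted p = 0.000148) and in FMT-Con A vs Con A (-1.56, SE 0.28, adjusted p = 0.00911). Abcc3 (-1.01, SE 0.22, adjusted p = 0.0178), Abcc6 and the bile salt pump Abcb11 (-1.30, SE 0.31, adjusted p = 0.0236) were the others that fell in FMT-Con A vs Con A, and all 8 were called in FMT-Con A vs WT, 6 as lower. Of all genes tested, 59% were called in FMT-Con A vs WT, and 27.9% were lower.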

How the data were processed

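RNA-seq of 9 mouse liver libraries was read from gene count tables. Raw counts per gene, not normalized, were deposited by the authors, 1 table per library. CASAVA, HISAT2, featureCounts and the GRCm38 (mm10) build are named per the submitters' processing notes; their versions, the annotation release and the treatment of strand and of reads that fit several genes are not given in the sources used here, so reads from near-identical, overlapping or antisense genes may be shared or lost. Symbols came from GENCODE vM21 and matched 52083 of 55359 Ensembl identifiers; 1360 numbered gene models held 1.43 to 1.98% of the counts and identifiers without a symbol 0.524 to 1.15%. No column went unused.

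From these counts, edgeR 4.0.16 with limma 3.58.1 in R 4.3.3 fitted all 9 libraries in one quasi-likelihood model of 3 groups with no other term (6 residual degrees of freedom), after TMM scaling and filterByExpr (minimum count 10, minimum total 15). Every adjusted p in the text is edgeR's, two-sided, Benjamini-Hochberg over the 17704 genes tested, with a threshold of 0.05. Log2 fold changes carry a prior count of 0.125, and standard errors were obtained by dividing its size by the root of the F statistic. Sharing between genes was measured as 100-base stretches of exon found in another gene. Intervals on pooled counts are exact and cover counting error only. Alternatives were RLE scaling, DESeq2 1.42.0, no filter, fits of the 2 groups compared, the replicate number as a block, each library left out, pairs of libraries left out, muscle and mitochondrial genes removed, near copies summed, a 2-fold minimum and library-total scaling of the sums. The scripts were tested on simulated data. Promoter sequences are RefSeq's on GRCm38.p6. Python 3.11.15, pandas 2.3.3, Biopython 1.88 and matplotlib 3.10.9 were used for the rest.

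Named in the text are, per comparison and family, up to 3 called members with the largest rise and the largest fall that reached 1 CPM in the higher group, 10 members whatever their p (Ugt1a1, Ugt1a6a, Ugt2b1, Sult1a1, Sult1e1, Gsta3, Gstm1, Gstp1, Gstt1 and Gstz1), exceptions within a family where 5 or fewer, and for each pathway list up to 3 genes with the lowest p and the exceptions. The members and lists were chosen with earlier results of these data known, and the skeletal muscle list follows one drawn up after counts had been seen.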

Additional observations from a re-analysis of the deposited data

How the results depend on the processing

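Leaving out 1 library at a time gave 6 to 12 higher and 15 to 22 lower members in Con A vs WT, 0 to 1 higher and 1 to 27 lower in FMT-Con A vs Con A, and 3 to 6 higher and 26 to 31 lower in FMT-Con A vs WT. Over all genes the ranges were 5054 to 6080 higher and 4883 to 6021 lower in Con A vs WT, 151 to 1908 higher and 513 to 2366 lower in FMT-Con A vs Con A, and 4859 to 6014 higher and 4196 to 5335 lower in FMT-Con A vs WT. For each called member, the alternatives counted were the fits that held it as a single gene, with the 2-fold minimum left aside. Past the threshold in all of these were 20 of 27 members in Con A vs WT and 0 of 17 in FMT-Con A vs Con A. In FMT-Con A vs WT they numbered 20 of 33, and no called member changed sign. Summed, the Ugt1a genes were not called in Con A vs WT (adjusted p = 0.712). Neither were Gsta1 with Gsta2 (adjusted p = 0.0588) or Gstp1 with Gstp2 (adjusted p = 0.0965). In FMT-Con A vs Con A, lower members numbered 25 with no filter, 5 with only those groups fitted, 25 without Con A 2 and FMT-Con A 2, and 0 with FMT-Con A 2 as the lone FMT-Con A library, which is assumed to vary like the other groups. Higher members in that comparison numbered 0 with a 2-fold minimum, with only those groups fitted or with the lone library, and 2 with DESeq2, with no filter or without Con A 2 and FMT-Con A 2. Over all genes in that comparison, calls numbered 644 higher and 799 lower with a 2-fold minimum, 324 and 832 with only those groups fitted, 2782 and 3266 without Con A 2 and FMT-Con A 2, and 32 and 67 with the lone library. With a 2-fold minimum Con A vs WT had 10 lower members and 3818 higher genes, and FMT-Con A vs WT had 3 higher members, 3382 higher genes and 3264 lower genes. With near copies summed, 5 members were higher in Con A vs WT and 3 in FMT-Con A vs WT, where fewer features were tested. The lone library gave 3 higher members and 3216 lower genes in FMT-Con A vs WT. Values that changed sign were all uncalled ones of FMT-Con A vs Con A: Gsta3 at 0 without Con A 1 (range over single libraries -0.50 to 0), Sult1e1 at 0.13 without Con A 3, 0.32 without FMT-Con A 1 and 0.38 without FMT-Con A 3 (range -1.60 to 0.38), and, with the lone library, Gstz1 at 0.03, Sult1a1 at 0.18, Ugt1a6a at -0.13 and Sult1e1 at 1.16. Scaling by library total moved the WT sums to 7927 CPM for all members, 1513 CPM for GST mu and 1421 CPM for SULT. Except where fewer features or samples were fitted, the cause was not tested.

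The replicate numbers were checked for pairing: deviations from the group means of same-numbered libraries correlated at -0.216 to 0.344 and not all above 0.1. For unlike-numbered libraries the range was -0.432 to 0.362. Deviations within groups of 3 depend on each other, so the check cannot settle whether same-numbered samples were paired. The labels do not say what a number marks. With the replicate block, members numbered 9 higher and 20 lower in Con A vs WT, 1 higher and 12 lower in FMT-Con A vs Con A, and 5 higher and 27 lower in FMT-Con A vs WT.

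Depth limits the members under about 1 CPM, such as Gsta1 and Sult2a7, and the 19 members under the filter. With 3 libraries a group, a missed threshold does not show that values were alike.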
